A study of Mus musculus with 4 samples.

Results

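The genes described here are 10 genes of adrenocortical zonation and of the Wnt and Hedgehog signals that pattern the cortex: Nr5a1, Nr0b1, Dab2, Agtr1a, Vsnl1, Wnt4, Rspo3, Znrf3, Lef1 and Shh. They were chosen by name, and each was read through the probe sets that the platform annotation gives to that gene and to no other, 20 probe sets of 34945 with 1 gene and 10 genes of 18193. The mice were males aged 2 months, and RNA of their adrenal glands was hybridised to 4 arrays, 2 of wild-type and 2 of V1a knockout mice, which lack the vasopressin receptor gene Avpr1a. The labels name no strain, no treatment and no deleted segment, and they do not say whether an array holds 1 animal or a pool, so the spread between arrays of a genotype may be technical. Values are log2 expression units, and a difference is the knockout mean minus the wild-type mean.

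The adrenal cortex is built in layers beneath a fibrous capsule. The outer zona glomerulosa makes aldosterone under the control of angiotensin II and potassium, and the zona fasciculata beneath it makes glucocorticoids under the control of ACTH. R-spondins from the capsule and Wnt ligands in the outer cortex keep beta-catenin signalling high in the zona glomerulosa, and Sonic hedgehog from subcapsular cortical cells signals back to the capsule. R-spondins act by holding the ubiquitin ligases Znrf3 and Rnf43 away from Wnt receptors, so more receptors stay at the cell surface.

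Of 45037 probe sets on the arrays, 17228 reached the filter of 4 log2 units on 2 or more arrays, whichever these were, and limma was fitted on all of them. Medians of the tested probe sets lay between 6.99 and 7.11 on the 4 arrays. Wild-type array 1 stood apart, with a correlation across probe sets of 0.919 to 0.924 with each other array, where the other 3 arrays correlated at 0.974 to 0.986 with one another. Alb, the albumin gene of liver, read 8.86 there and 2.42 to 2.43 on the other arrays. Avpr1a, the targeted gene, read 2.31 to 2.60 on all arrays, near the lowest value of 2.30, and so does not check the genotype labels. The cortex markers Star, Cyp11a1 and Cyp21a1 read above 13 on every array, as did the chromaffin markers Chga and Chgb, so both parts of the gland were in each sample.

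No difference of these 10 genes between the genotypes passed the test over all probe sets. At an adjusted p of 0.05 in limma, 0 of the 9 genes that passed the filter were called, against a background of 0% of the 10110 genes tested. At an unadjusted p under 0.05 there was 1 of 9, Vsnl1, where the background was 5.06% of genes. Taking the brightest probe set for each gene, 4 lay higher and 5 lower in the knockout, with a median difference of -0.02, against -0.05 over all tested genes. The members' median is 0.01 with the arrays centred on their medians or quantile normalized, and 5 then lie higher. Groups were separate in 4 of these 9 genes, without overlap between their arrays (Nr5a1, Nr0b1 and Rspo3 lower, Vsnl1 higher), and 37.7% of all tested genes showed the same. Adjusted p values of the 15 tested probe sets lay between 0.794 and 0.985. Exact permutation of 2 arrays against 2 cannot go below p = 0.333 (two-sided), so it was not used for single genes.

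**Figure D1:**
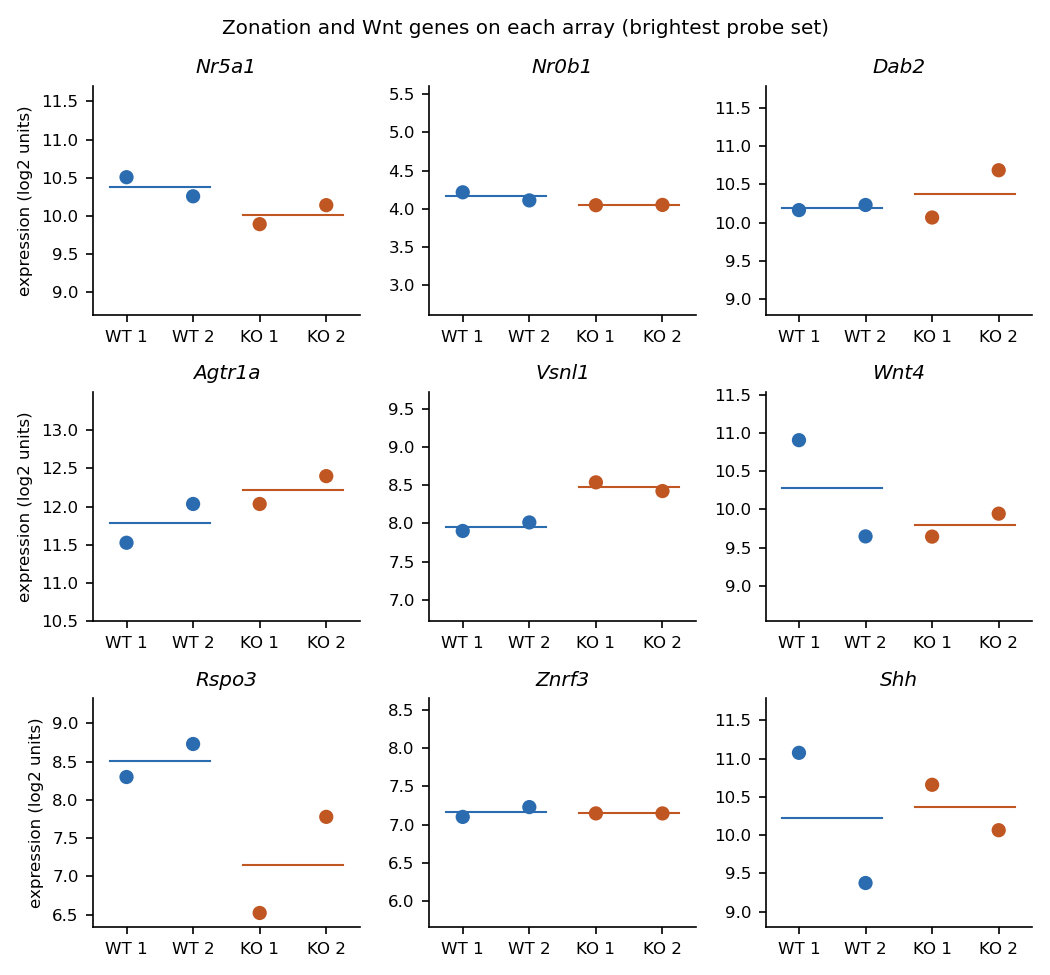
Log2 expression of the brightest probe set of 9 genes on wild-type arrays 1 and 2 (WT, blue) and knockout arrays 1 and 2 (KO, orange), with the mean of each genotype as a line; every panel spans 3 log2 units. Rspo3, Vsnl1, Nr5a1 and Nr0b1 separate by genotype, as 37.7% of all tested genes do. Wnt4 and Shh are spread most between the wild-type arrays, from 10.90 to 9.65 and from 11.08 to 9.37.

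Among the nuclear receptors of the cortex, Nr5a1 (gene ID 26423, chromosome 2) encodes SF-1, which drives adrenal development and the genes of steroid synthesis. It read 10.51 and 10.26 in wild type, against 9.89 and 10.14 in the knockout. Both knockout arrays were below both wild-type arrays, but the nearest pair lay 0.12 apart. The difference was -0.37 (SE 0.20, 95% interval -0.94 to 0.21, n = 2 per group, limma adjusted p = 0.794). Of all tested probe sets, 33.7% differed by at least as much. The other probe set of Nr5a1 stayed at 2.41 on all arrays, below the filter.

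Nr0b1 (gene ID 11614, chromosome X) encodes DAX-1, a receptor without the usual DNA-binding domain that represses SF-1. Its 1 probe set was dim, at 4.22 and 4.11 in wild type, against 4.05 and 4.05 in the knockout, just above the filter. The knockout arrays were again the lower ones, by a small margin. The difference was -0.11 (SE 0.16, 95% interval -0.57 to 0.34, limma adjusted p = 0.848).

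To set these values beside sequence, RefSeq promoter windows of GRCm38.p6, 250 bases before to 50 after a transcript start, were searched on both strands for 3 fixed motifs: CTTTGA, the core read by TCF and LEF factors, AAGGTCA, the core read by Nr5a1, and GACCACCC, read by Gli factors. The promoter table matched 5 of the 10 genes with 10 windows, and 3 windows held a match. The window of Nr0b1 (chrX:86191525-86191824, plus strand) is shown because it held 2 of the motifs, marked by capitals: a TCF/LEF core that begins 139 bases before the start and a Gli match that begins 38 bases after it. Of all 32851 windows, 16% held CTTTGA, 4.72% AAGGTCA and 0.807% GACCACCC. A match of letters is a description and not evidence of binding.
Nr0b1: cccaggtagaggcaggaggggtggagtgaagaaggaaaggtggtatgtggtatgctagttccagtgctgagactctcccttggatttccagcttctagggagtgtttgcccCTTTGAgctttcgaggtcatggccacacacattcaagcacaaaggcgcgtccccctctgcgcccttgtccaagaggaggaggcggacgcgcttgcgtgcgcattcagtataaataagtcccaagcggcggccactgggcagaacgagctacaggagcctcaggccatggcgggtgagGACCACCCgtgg

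The zona glomerulosa genes Vsnl1, Dab2 and Agtr1a each had a higher mean in the knockout at their brightest probe sets, by 0.18 to 0.52 log2 units. Vsnl1 (gene ID 26950, chromosome 12) encodes visinin-like 1, a neuronal calcium sensor that marks glomerulosa cells. Its brightest probe set read 7.90 and 8.01 in wild type, against 8.54 and 8.42 in the knockout. Arrays within a genotype lay 0.11 apart, and the genotypes did not overlap. The difference was 0.52 (SE 0.16, 95% interval 0.05 to 0.99, limma adjusted p = 0.794), which is 1.44-fold, and 19.8% of tested probe sets differed by at least as much. Without knockout array 1 the difference was 0.47, and without knockout array 2 it was 0.58, and in both the unadjusted p was no longer under 0.05.

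The 2 probe sets of Vsnl1 did not go together, although the annotation gives both the same transcript. The other one read 8.10 and 6.08 in wild type, against 7.03 and 6.76 in the knockout. Wild-type array 1 was the highest of the 4 and wild-type array 2 the lowest, and both knockout arrays lay between them. That probe set differed by -0.19 (SE 0.76, 95% interval -2.37 to 1.99). Of the 2 RefSeq windows of Vsnl1, the one at chr12:11435602-11435901 (minus strand) is shown as the only other window of a tested gene with a match, a TCF/LEF core that begins 62 bases before the start (capitals). Which start either probe set reads was not tested.
Vsnl1: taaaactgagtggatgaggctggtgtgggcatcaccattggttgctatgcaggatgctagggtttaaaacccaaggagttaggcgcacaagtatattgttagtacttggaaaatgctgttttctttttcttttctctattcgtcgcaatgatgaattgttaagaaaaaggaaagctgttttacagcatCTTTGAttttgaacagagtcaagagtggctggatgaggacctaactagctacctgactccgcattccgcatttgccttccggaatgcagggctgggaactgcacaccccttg

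Dab2 (gene ID 13132, chromosome 15), an endocytic adaptor protein used as a glomerulosa marker, was read by 4 tested probe sets. The brightest gave 10.16 and 10.23 in wild type, against 10.07 and 10.68 in the knockout. Knockout array 2 was the high one and knockout array 1 the lowest of the 4, so the groups overlapped. The 4 differences were 0.18, 0.38, 0.24 and 0.16, all toward the knockout, with intervals that all contained 0. In the second probe set the knockout arrays were both higher (9.57 and 10.07 against 9.52 and 9.37), and likewise in the dimmest (4.70 and 4.74 against 4.58 and 4.55). The brightest probe set turned to -0.13 without knockout array 2, which stood 0.62 above knockout array 1.

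Agtr1a (gene ID 11607, chromosome 13), the main angiotensin II receptor of the mouse adrenal cortex, had 1 probe set. It read 11.53 and 12.03 in wild type, against 12.03 and 12.40 in the knockout. Wild-type array 1 was lowest, and knockout array 1 met wild-type array 2, which is where the groups overlapped. The difference was 0.44 (SE 0.28, 95% interval -0.35 to 1.22, limma adjusted p = 0.794). Without wild-type array 1 it was 0.18.

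Of 15 other genes listed for the zona glomerulosa, 11 were measured, 4 with a higher mean and 7 with a lower one, the median being -0.11. By their brightest probe sets, 0 were under an unadjusted p of 0.05 in limma (0 adjusted). Cyp11b2, the aldosterone synthase, read 10.28 and 10.08 in wild type, against 10.65 and 10.07 in the knockout, which differ by 0.18 (SE 0.27). The smallest p values belonged to Cacna1h, a T-type calcium channel, at -0.36, and to Agtr1b, the second angiotensin type 1 receptor of mice, at -0.17. They were -0.21 without wild-type array 1 and -0.03 without wild-type array 2, respectively. Groups were separate in 2 of these 11, both lower, where 20.5% of all genes lay so. Of all 19 tested probe sets of these genes, 2 had an unadjusted limma p under 0.05, as did 885 of the 17228 tested. Both were of Kcnk3, a potassium channel that sets the resting potential of glomerulosa cells, which was singled out after its values were seen. One read 8.15 and 8.25 in wild type, against 7.33 and 6.89 in the knockout, which differ by -1.09 (SE 0.23), and the other differed by -1.14 (SE 0.21). The brightest probe set of Kcnk3 overlapped between the groups and differed by -0.14 (SE 0.18).

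The zona fasciculata gave no call either, and the X-zone could not be tested. Among 10 measured fasciculata genes 4 had a higher mean and 6 a lower one, the median being -0.10 and 0 at an unadjusted p under 0.05. Groups were separate in 5 of these 10, 4 lower and 1 higher, where 20.5% and 17.1% of all genes lay so. Abcb1b, a multidrug transporter, differed by 1.00 and Mrap, the accessory protein of the ACTH receptor, by -0.45, while Cyp11b1, which makes corticosterone, differed by 0.11 (SE 0.19). Abcb1b was 0.38 without wild-type array 1 and 0.50 as the mean of its probe sets, and Mrap was -0.18 without knockout array 1. Akr1c18, the marker of the X-zone, read 2.30 to 3.11, and the 3 X-zone genes did not pass the filter.

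**Figure D2:**
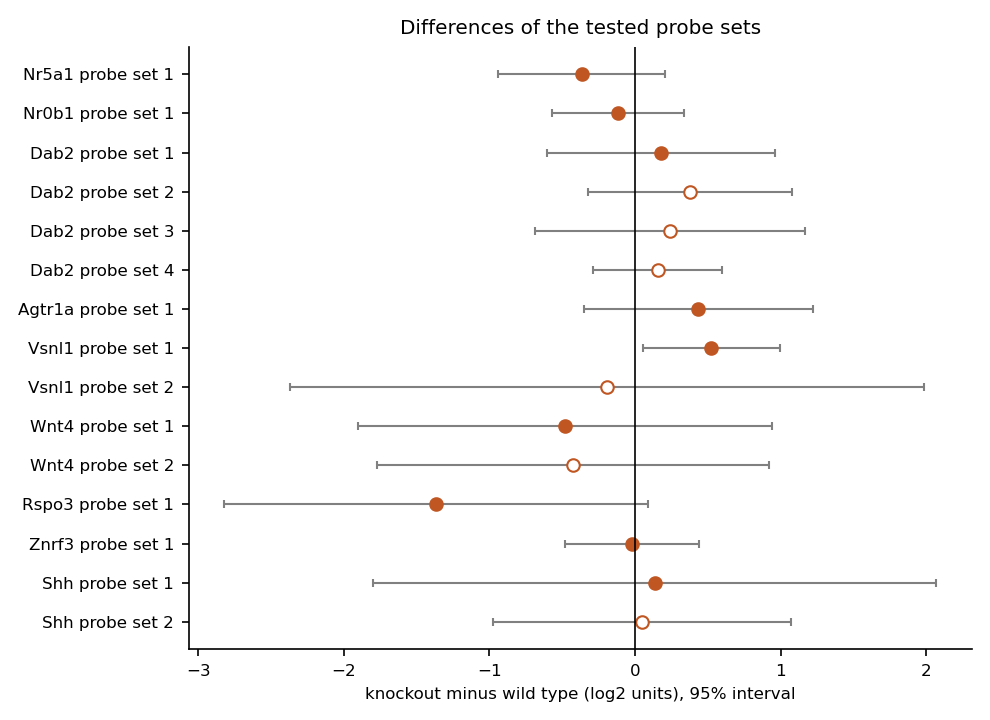
Knockout minus wild type in log2 units for the 15 tested probe sets of 9 genes, with limma's 95% interval; filled points are the brightest probe set of a gene and open points its others, numbered from bright to dim. The interval of 1 probe set, the brightest of Vsnl1 (0.05 to 0.99), does not contain 0.

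Rspo3 (gene ID 72780, chromosome 10) had the largest difference of the 10 genes. It encodes an R-spondin made by the adrenal capsule that sustains Wnt signalling in the outer cortex. The bright probe set read 8.30 and 8.73 in wild type, against 6.52 and 7.78 in the knockout. Both knockout arrays were below both wild-type arrays, and they lay 1.26 apart from each other, a gap reached by 0.894% of tested probe sets on these 2 arrays. The difference was -1.37 (SE 0.51, 95% interval -2.82 to 0.09, limma adjusted p = 0.794), which is 2.58-fold, and 2.49% of tested probe sets differed by as much. It was -0.74 without knockout array 1 and -1.99 without knockout array 2, with an adjusted p of 1 in limma for each. The other probe set of Rspo3 was at 2.30 to 2.31 on every array.

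Knockout array 1, the lowest for Rspo3, was also the lowest for markers of fat, tissue that lies around the gland. All 7 measured fat markers had their lowest value there, as 24.2% of all genes did, and the mean level of the list was 8.17 and 7.35 in wild type, against 5.99 and 7.81 in the knockout. On knockout array 2, 4 of the 7 had their highest value, while Rspo3 there was below both wild-type arrays. Lep was at 2.30 on all arrays. The smallest p values in that list belonged to Slc2a4, the insulin-responsive glucose transporter, at -1.56, and Ucp1, the uncoupling protein of brown fat, at -4.29. Ucp1 was -2.74 without knockout array 1. Capsule and fibroblast markers had their lowest value on knockout array 1 in 4 of 11 genes, with mean levels of 8.55 and 8.13 in wild type, against 7.94 and 8.21 in the knockout. Postn and Dcn, both matrix proteins, had the smallest p values there, with Postn at -0.67 (-0.42 without wild-type array 1) and Dcn going from 10.55 and 9.65 in wild type to 8.79 and 9.41. Knockout array 1 was also the lowest in 6 of the 10 measured Hedgehog pathway genes and in 5 of the 9 tested zonation and Wnt genes, Rspo3 included. The part of fat and capsule tissue in the Rspo3 values was not tested. In bulk RNA fewer cells of a type cannot be told apart from less RNA per cell.

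The genes nearest to Rspo3 over the 4 arrays were Ogn, Tnnt2 and Fmod. Nearness was the root mean square distance between values centred on each gene's mean, over 4 arrays and 10109 other genes, and it came to 0.21, 0.22 and 0.23 log2 units. Ogn, the matrix proteoglycan osteoglycin, read 10.19 and 10.65 in wild type, against 8.84 and 9.52 in the knockout. Fmod, the matrix proteoglycan fibromodulin, read 7.63 and 7.58 and then 5.84 and 6.65. Tnnt2, a troponin of heart muscle, read 5.45 and 6.27 and then 4.19 and 4.99. In all 3 the knockout arrays were lower and knockout array 1 the lowest, which is what the measure selects.

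Wnt4 (gene ID 22417, chromosome 4), the Wnt ligand of the glomerulosa, was read alike by 2 probe sets. The brighter gave 10.90 and 9.65 in wild type, against 9.64 and 9.94 in the knockout, and the other 10.39 and 9.22 and then 9.23 and 9.53. On both, wild-type array 1 was far above the other 3 arrays, which lay within 0.32 of one another. The differences of -0.48 (SE 0.50, 95% interval -1.90 to 0.94) and -0.43 (SE 0.47) rested on that array. Without wild-type array 1 the brighter probe set differed by 0.15, and without wild-type array 2 by -1.11. Wild-type array 1 was the highest of the 4 arrays for 47.1% of all tested probe sets, and for 7 of the 15 described here.

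Znrf3 (gene ID 407821, chromosome 11), the ubiquitin ligase that removes Wnt receptors and that R-spondins hold back, differed by -0.02 (SE 0.16, 95% interval -0.48 to 0.44). Its values were 7.10 and 7.23 in wild type, against 7.15 on both arrays of the knockout, and its sign turned when the arrays were rescaled. The 2 knockout values were identical to the last deposited digit, so their SD of 0 is no sign of precision. This held for 285 tested probe sets, 41 of them at or above 7 log2 units. Its second probe set was at 2.31 on all arrays. Rnf43, its paralogue, read 3.40 to 4.44 and did not pass the filter.

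Lef1 (gene ID 16842, chromosome 3), a transcription factor that acts with beta-catenin, was not read above the filter. Its 2 probe sets lay at 3.31 to 3.43 and at 2.37 to 2.39, so a difference between genotypes could not be measured.

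No other gene of the Wnt pathway passed the adjusted threshold. Of 41 other ligands, R-spondins and receptors, 24 were too dim to test, among them Rspo1 at 2.58 to 2.59. Of the 17 tested, 10 lay higher, including Wnt5b, which passed the filter only through the knockout arrays, and 7 lower, with 1 in each direction at an unadjusted p under 0.05 (background 2.14% of genes higher and 2.93% lower) and 0 at an adjusted p of 0.05 in limma. Fzd8, a Wnt receptor, differed by -0.67 (SE 0.16), and Wls, which carries Wnt proteins to the cell surface, by 0.68 (SE 0.23). Another probe set of Wls went the other way, at -0.20. Lgr5, a receptor for R-spondins, read 9.27 and 7.41 in wild type, against 8.29 and 7.40 in the knockout, which differ by -0.50 (SE 0.77), and by 0.43 without wild-type array 1.

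Inside the cell, 11 of 19 genes of the beta-catenin pathway had a higher mean and 8 a lower one, the median being 0.18 and 0 at an unadjusted p under 0.05. Tcf7l2, a transcription factor of the pathway, passed the filter only through the knockout arrays, where it read 4.21 and 4.02, against 3.18 and 3.78 in wild type. Of the other 18 genes, the brightest probe sets separated the groups in 7, all with the knockout higher, where 17.1% of all genes lay so. Other probe sets of the same genes did not all keep to this direction. Those of Ctnnb1 differed by 0.38, with the groups separate, and by 0.08, and that of Csnk1a1, a casein kinase, by 0.10. Those of Tcf7l1, a transcription factor of the pathway, and Tle3 went the other way, at -0.13 and -0.21. The other probe sets of Gsk3b, a kinase that marks beta-catenin for removal, differed by -0.23, -0.43 and -0.63, where its brightest differed by 0.13. Groups were separate at -0.43 and -0.63. Csnk1a1, Tcf7l1 and Gsk3b were singled out after their values were seen. Ctnnb1, beta-catenin itself, read 12.52 and 12.87 in wild type, against 13.01 and 13.00 in the knockout, which differ by 0.31 (SE 0.20). The smallest p values belonged to Tcf7l2, at 0.64, and Tle3, a co-repressor, at 0.45, whose other probe set differed by -0.21. Without wild-type array 1 the differences of Ctnnb1, Tcf7l2 and Tle3 were 0.14, 0.34 and 0.27.

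Wnt inhibitors and target genes were measured for 10 of 25 genes, 5 higher and 5 lower. Axin2, the most used readout of beta-catenin activity, read 6.68 and 6.73 in wild type, against 6.62 and 6.83 in the knockout, which differ by 0.02 (SE 0.17, 95% interval -0.47 to 0.52). Nkd1, an inhibitor of the pathway that Wnt signals induce, read 7.21 and 6.63 in wild type, against 5.38 and 5.80 in the knockout. Its difference of -1.33 (SE 0.30, limma adjusted p = 0.794) was the 1 in this list at an unadjusted p under 0.05. The other 3 tested probe sets of Nkd1 differed by 0.20, -0.13 and -0.35. Ccnd1, cyclin D1, differed by 0.62, and by 0.17 without wild-type array 1.

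**Figure D3:**
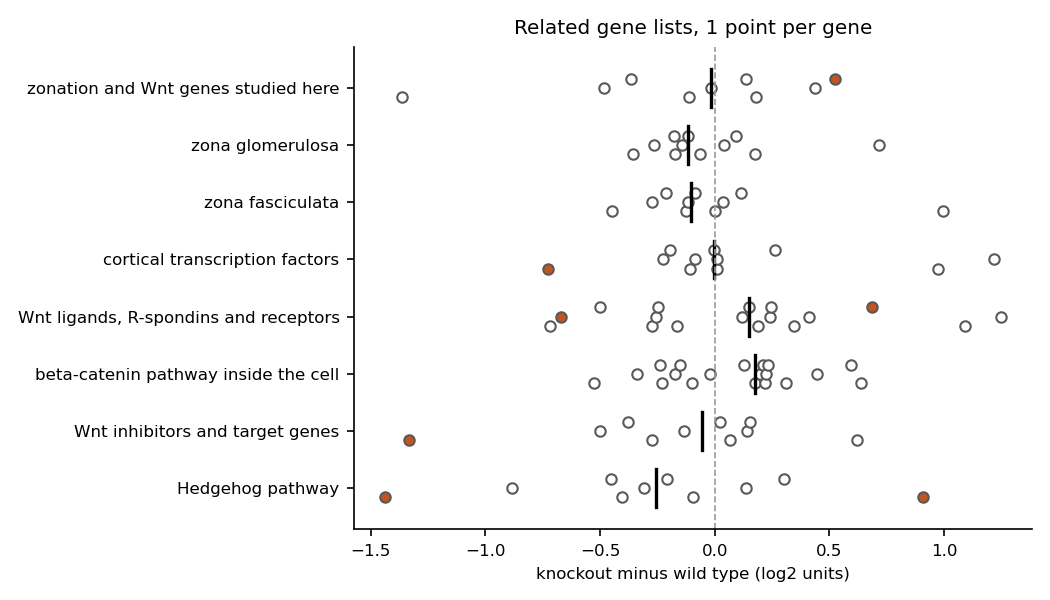
Knockout minus wild type in log2 units for each tested gene of 8 lists, by its brightest probe set; filled points have an unadjusted limma p under 0.05 and the bar is the median of the list. Medians lie between -0.26 in the Hedgehog pathway and 0.18 in the beta-catenin pathway, and each list has genes on both sides of 0.

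Shh (gene ID 20423, chromosome 5), the Hedgehog ligand of the outer cortex, varied more within the genotypes than between them. The bright probe set read 11.08 and 9.37 in wild type, against 10.66 and 10.07 in the knockout. Array 1 of each genotype was above array 2 of both, and the same order held in the dim probe set, with 4.31 and 3.83 in wild type, against 4.49 and 3.75 in the knockout. The difference was 0.14 (SE 0.68, 95% interval -1.80 to 2.07, limma adjusted p = 0.965), and 0.05 (SE 0.36) in the dim one. Leaving out wild-type array 1 gave 0.99, and leaving out wild-type array 2 gave -0.71.

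Chromaffin markers of the medulla had this order of arrays too. In 10 of 12 both first arrays were above both second ones, as in 22.6% of all genes, and the list's mean level was 11.11 and 10.39 in wild type, against 11.03 and 10.28 in the knockout. No marker of that list was near the floor. By genotype, 5 of the 12 lay higher and 7 lower, with the smallest p values in Penk, the enkephalin precursor, at -0.88 and Slc18a2, a vesicular amine transporter, at 0.79, which was 0.16 without knockout array 1. Both first arrays were above both second ones also in 5 of the 11 measured genes of the zona glomerulosa list, Cyp11b2 among them. The share of medulla or of zona glomerulosa in each sample and its part in the Shh values were not tested.

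**Figure D4:**
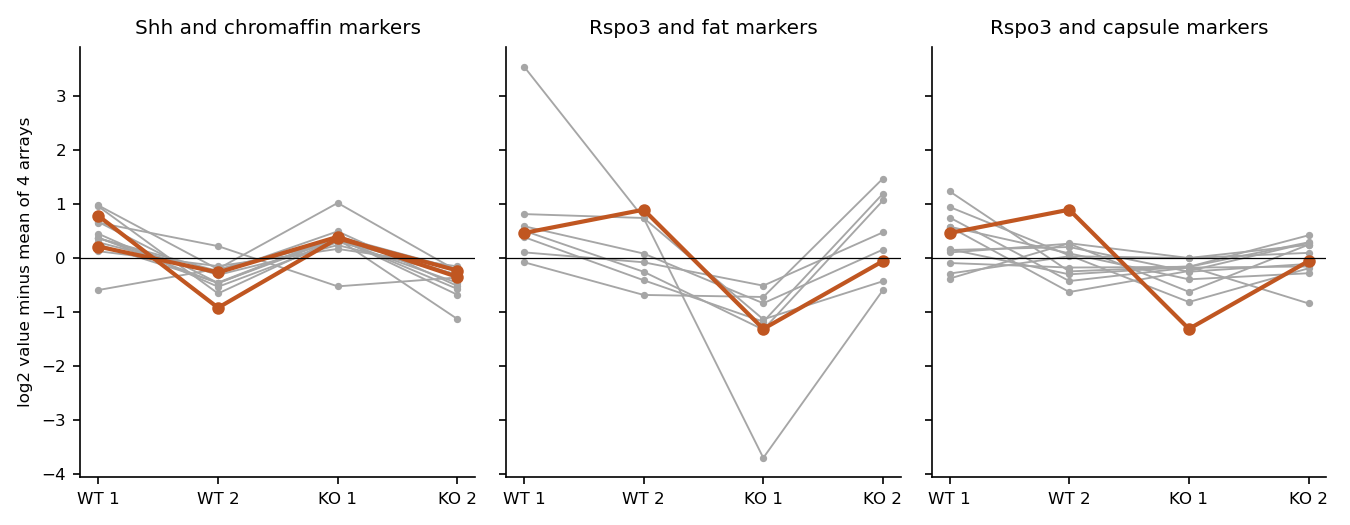
Values on each array minus the mean of the 4 arrays, in log2 units, for Shh (orange, both tested probe sets) with 12 chromaffin markers, and for Rspo3 (orange) with 7 fat markers and with 11 capsule and fibroblast markers (grey, 1 line per gene). Shh and 10 of the 12 chromaffin markers are higher on the first array of each genotype. Rspo3 and all 7 fat markers are lowest on knockout array 1, and 4 of the 7 fat markers are highest on knockout array 2.

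In the Hedgehog pathway beyond Shh, 10 of 19 genes were measured, 3 higher and 7 lower, with a median of -0.26 and 0 at an adjusted p of 0.05 in limma. Gli3, a transcription factor of the pathway, passed the filter only through the knockout arrays (4.20 and 4.01, against 2.99 and 3.40 in wild type) and differed by 0.91 (SE 0.23). Among the other 9, groups were separate in 5 with the knockout lower and in 1 with it higher, where 20.5% and 17.1% of all genes lay so. Gpc3, a glypican that binds Hedgehog and limits its signal, read 5.68 and 5.22 in wild type, against 3.90 and 4.12 in the knockout, which differ by -1.44 (SE 0.24, limma adjusted p = 0.794). Ptch1, the Hedgehog receptor and a target of the pathway, read 8.79 and 9.33 in wild type, against 8.84 and 9.55 in the knockout, which differ by 0.14 (SE 0.36). Gli1, the usual readout of Hedgehog response, was at 2.30 on all arrays.

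Of other transcription factors of the cortex, 11 of 17 were measured, 5 higher and 6 lower, and 1 had an unadjusted p under 0.05, where the background was 5.06%. Cited2, a transcriptional coregulator needed for adrenal development, read 8.71 and 8.53 in wild type, against 8.10 and 7.68 in the knockout, which differ by -0.73 (SE 0.23, limma adjusted p = 0.794). Its second probe set went the same way, from 6.89 and 6.21 to 4.62 and 4.58. Nr2f1, an orphan nuclear receptor, differed by 1.22, and by 0.07 without wild-type array 1.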

How the data were processed

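Each of the 4 samples was read on 1 Affymetrix Mouse Genome 430 2.0 array. Per the labels' protocols, the authors extracted RNA with TRIzol, purified mRNA, kept samples with an RNA integrity number of 8.0 to 9.0 and processed the scans with GCRMA in Bioconductor 3.14. The deposited values are taken as log2 expression per probe set from their range, 2.30 to 14.9, since the table does not state a scale. GCRMA draws weak probe sets to a shared floor, which compresses their differences. No further normalization was applied. The 64 control probe sets were left out, and 17228 of 45037 probe sets passed the filter.

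The genotypes were compared with limma 3.58.1, run in R 4.3.3 (a linear model with empirical Bayes variances, 2 residual and 1.73 prior degrees of freedom), and p-values were adjusted by Benjamini-Hochberg across the whole tested set. An SE is limma's moderated standard error. The brightest tested probe set stood for a gene, which gave 10110 genes. Genes come from the platform annotation, chromosomes and promoters from RefSeq for GRCm38.p6. The number of arrays limits the precision. The scripts were tested on simulated data.

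The 10 genes and the lists were chosen with earlier results of these data known. All 10 genes are named, and of each related list the genes past the adjusted threshold, otherwise the 2 with the smallest p. Cyp11b2, Cyp11b1, Axin2, Ctnnb1, Gli1, Ptch1, Rspo1, Lgr5, Rnf43, Alb and Akr1c18 are named whatever their p, as are the 3 genes nearest to the member with the largest difference. Alternatives were other filters, quantile normalization, median centring, a variance trend, plain probe sets, a replicate block, leaving out each array and averaging the probe sets of a gene.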

Additional observations from a re-analysis of the deposited data

How the results depend on the processing

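The differences of the 9 tested genes kept their sign in 100 of 107 values under the alternatives. Part of these values could not change, since other filters, the variance trend and the replicate block return the main difference. Of the 7 reversed values, 5 came from leaving out an array. Znrf3 turned to 0.0065 with quantile normalization and to 0.0051 with centred arrays. Leaving out each array in turn gave -1.11 to 0.15 for Wnt4, -0.71 to 0.99 for Shh, -0.13 to 0.49 for Dab2 and -0.083 to 0.046 for Znrf3. It gave -1.99 to -0.74 for Rspo3, 0.47 to 0.58 for Vsnl1, 0.18 to 0.69 for Agtr1a, -0.49 to -0.24 for Nr5a1 and -0.17 to -0.061 for Nr0b1. Of 35 related genes, 405 of 412 values kept their sign, again with values that could not change, and C1qb turned to -0.078 with plain probe sets only. Leaving out each array gave -1.43 to 0.43 for Lgr5, -0.22 to 0.49 for Ptch1, -0.11 to 0.47 for Cyp11b2, -0.032 to 0.26 for Cyp11b1 and -0.082 to 0.13 for Axin2.

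Over all probe sets, 2 passed the adjusted threshold with a filter at 6 log2 units, with quantile normalization, with centred arrays and with plain probe sets only, and 0 did otherwise, leaving out each array included (0 to 0). Unadjusted p under 0.05 was met by 885 probe sets, by 1545 without a filter, and by 169 (without knockout array 1) to 6507 (without wild-type array 2) when an array was left out. Of the 10 genes, 0 to 2 were then under 0.05, and the groups did not overlap in 6 to 8. With 1 array left in a genotype, groups overlap only if that array lies between the others, and the fit takes its spread from the other genotype. Only the 9 tested genes could enter these counts. The share of all tested genes without overlap was not taken for these fits, so the counts do not set the 9 genes apart. The shared replicate numbers are not said to pair the arrays. With the number as a replicate block, 0 probe sets passed, 684 had an unadjusted p under 0.05, and among the 10 genes 1 was under 0.05, now Rspo3 in place of Vsnl1, and 4 did not overlap. The deviations of same-numbered arrays correlated at 0.154 across probe sets. The causes of these changes were not tested. Probe sets near the floor, such as those of Lef1, cannot show a difference.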

Other observations

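Markers of further cell types did not pass the adjusted threshold in limma (0 genes in each list). Of 8 endothelial markers 6 had a higher mean and 2 a lower one, the median being 0.08. Sox18, an endothelial transcription factor, read 6.58 and 6.53 in wild type, against 7.22 and 7.22 in the knockout, which differ by 0.67 (SE 0.15, limma adjusted p = 0.794), and Kdr, a VEGF receptor, differed by -0.36, and by -0.079 without wild-type array 1. Of 7 macrophage markers 5 had a higher mean and 2 a lower one, the median being 0.26, and the smallest p values were those of Cd68, a lysosomal protein, at 1.11 (0.59 without knockout array 2) and C1qb, a complement subunit, at 2.36. At this probe set of C1qb, wild-type array 1 gave 6.31 and the remaining arrays 9.97 to 10.54. Another probe set of C1qb read 9.33 on wild-type array 1, its highest value, and differed by -0.08. A further probe set read 8.05 there, its lowest value, and differed by 0.58.

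Liver transcripts were seen on few probe sets, and kidney markers other than Aqp1 did not pass the filter. Of the liver list 1 gene passed the filter, and only through the wild-type arrays. This was Serpina1b, an alpha-1 antitrypsin, which had values of 7.97 and 7.20 in wild type, against 2.30 on both arrays of the knockout. Ttr and Apoa1, both made in liver, read up to 8.95 and 6.88 on wild-type array 1 and did not exceed 2.99 and 2.51 on the other arrays. Of the kidney list only Aqp1, a water channel found in other tissues too, was tested, at -0.83 (-0.31 without knockout array 1), and the kidney markers Umod, Slc12a1 and Aqp2 lay at 2.30 to 2.57 on all arrays.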
